A study of Zea mays with 2 samples.

Results

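The regions described here are the 411 listed regions whose midpoint lay within 15 Mb of a fixed point that stands for the centromere of each maize chromosome. They were chosen by position alone, out of 3120 regions on chromosomes 1 to 10 and 3126 in all, and were compared with the other 2709 regions on those chromosomes. The fixed points lay, in order of chromosome number, at 134, 94, 100, 105.5, 106, 50, 58, 50, 72.5 and 51 Mb. No genome build is named in the sources used here, so the points were not checked against centromere repeats, and no gene, repeat or sequence was assigned to a region.

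Both libraries came from flowers of B73, the maize inbred behind the species' reference genome, and the labels name no treatment or mutation. There was 1 MNase library, from fragments of about 150 bp left after micrococcal nuclease had cut the DNA between nucleosomes, and 1 input library, from chromatin sheared to 200 to 500 bp. The series title concerns hotspots of meiotic double-strand breaks, the cuts with which recombination starts, and the design sets MNase reads against input. Each region carries a deposited count ratio, but the table names neither term, so a high or low ratio is not read here as high or low nucleosome occupancy.

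Maize centromeres are built on tandem CentC repeats and centromeric retrotransposons, and their chromatin carries the histone variant CENH3. Wide heterochromatin rich in retrotransposons and poor in genes surrounds them. Crossovers are rare there, whereas double-strand breaks are made by the SPO11 complex and need not end as crossovers. Whether listed regions reach into these stretches, and whether they look like those elsewhere, is therefore of interest.

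Listed regions occurred in all 10 windows and came close to the fixed points. The 300 Mb of the windows held 1.37 regions per Mb, against 1.55 per Mb in the 1751 Mb outside them. The windows took up 15.3% ± 3.37 of a chromosome's listed span and held 13.9% ± 4.74 of its regions (mean and SD, n = 10 chromosomes). With all chromosomes pooled, 205 members lay to the left of the points and 206 to the right. Single chromosomes were less even in either direction, with 16 left and 10 right on chromosome 1 and 32 and 38 on chromosome 5.

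Chromosomes differed widely in how many members they had. Chromosome 5 held 70, chromosome 6 held 50, chromosome 2 held 44, chromosome 10 held 41, and chromosomes 3 and 9 held 40 each. Chromosome 8 held 36, chromosome 4 held 34, chromosome 7 held 30 and chromosome 1 held 26. The longest chromosome thus had the fewest members, and they made up 6.22% of its regions in a window that covered 10.0% of its listed span.

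**Figure D1:**
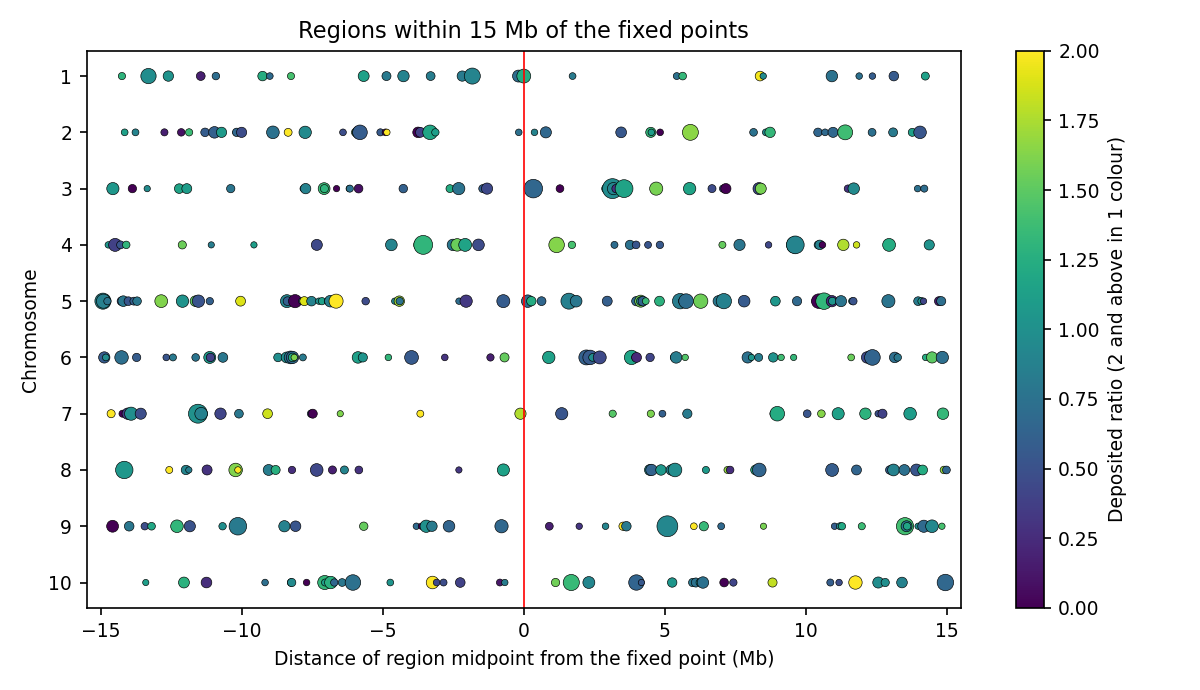
Each point is 1 of the 411 regions within 15 Mb, placed by its distance from the fixed point in Mb (horizontal) and its chromosome (vertical). Point size grows with region length and colour gives the deposited ratio; the red line is the fixed point, the row of chromosome 5 is the fullest with 70 regions, and chromosome 8 has none for 4.47 Mb to the right of the point.

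Density inside the windows averaged 1.37 ± 0.409 regions per Mb and outside 1.55 ± 0.114 (SD, n = 10 chromosomes). It was lower inside on 8 chromosomes and higher on chromosomes 5 and 6. On chromosome 5 the density was 2.33 per Mb inside and 1.502 outside, and on chromosome 6 it was 1.67 and 1.397. At the other end stood chromosome 1 with 0.867 inside and 1.45 outside, chromosome 7 with 1 and 1.51, and chromosome 4 with 1.13 and 1.75. The ranges inside and outside overlapped, and the spread over chromosomes was wider inside.

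The mean log2 difference in density, inside minus outside, was -0.22 ± 0.41 (SD, n = 10 chromosomes). It did not pass the threshold (exact permutation of signs over chromosomes, two-sided, p = 0.125, adjusted p = 0.312 over 10 tests). The value depends on chromosome 5, which had the largest difference in the opposite direction. Without it the difference was -0.32 with an unadjusted p of 0.0195 in the same exact test. Without any other single chromosome the unadjusted p of that test ran from 0.0820 to 0.246. Chromosomes of 1 genome in 1 pair of libraries are not biological replicates, and this p and those below describe only the spread between chromosomes.

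The classes nearest to the fixed points had the lowest densities. Within 1 Mb of them 19 regions were listed, 0.950 per Mb, and from 1 to 2.5 Mb 27 regions, 0.900 per Mb. From 2.5 to 5 Mb the density was 1.4 per Mb with 70 regions, from 5 to 10 Mb 1.32 with 132, and from 10 to 15 Mb 1.63 with 163. Beyond the limit it was 1.44 per Mb from 15 to 20 Mb and 1.74 from 20 to 30 Mb, so the limit itself marks no step. Chromosome 4 had no region within 1 Mb and chromosome 2 none from 1 to 2.5 Mb, whereas chromosome 5 had 2.5 per Mb within 1 Mb.

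**Figure D2:**
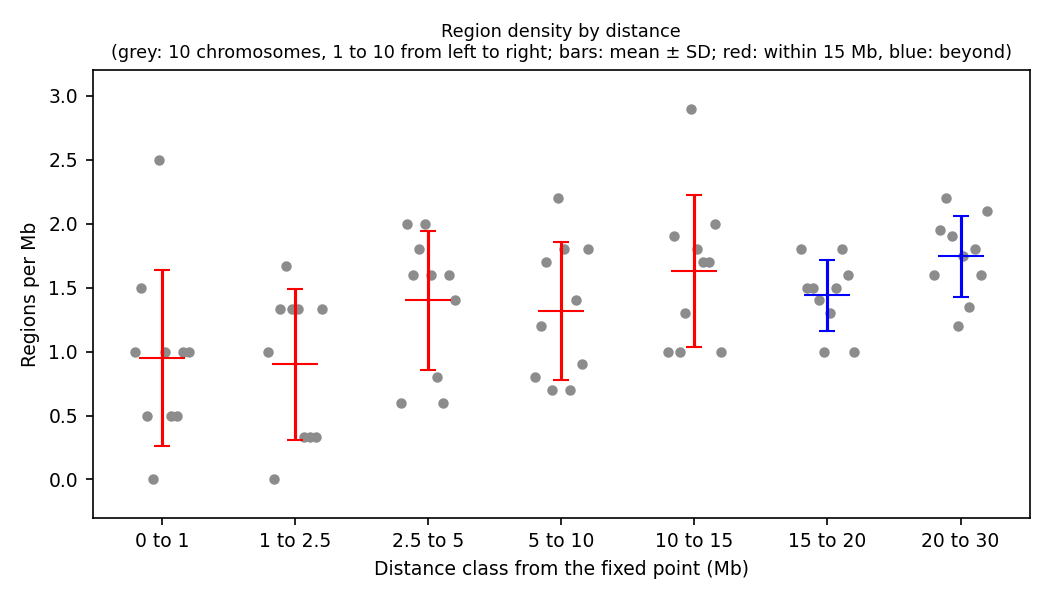
Regions per Mb (vertical) in classes of distance from the fixed point (horizontal, Mb). Grey points are chromosomes 1 to 10 from left to right within a class, and bars show the mean ± SD over chromosomes, red within 15 Mb and blue beyond; the means of both classes below 2.5 Mb, 0.950 and 0.900, are the lowest.

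Within 5 Mb of the points the density averaged 1.16 ± 0.422 per Mb and from 5 to 15 Mb 1.48 ± 0.463 (SD, n = 10 chromosomes). The inner density was the lower one on 9 of 10 chromosomes, and chromosome 4 was the exception with 1.4 per Mb within 5 Mb and 1 per Mb beyond. Chromosome 8 showed the widest difference, 0.5 against 1.55 per Mb. The mean log2 difference, inner minus outer, was -0.39 ± 0.57 (SD, n = 10 chromosomes), with p = 0.0430 in the exact permutation and an adjusted p of 0.215, which did not pass the threshold. With the inner limit at 2.5 Mb the densities were 0.920 and 1.46 per Mb. The log2 difference was then -0.77 (same exact test, unadjusted p = 0.00781). It was negative on 9 of 10 chromosomes, here with chromosome 1 as the exception. The 2.5 Mb limit was 1 of 16 alternatives to the 5 Mb comparison, and its p is not adjusted for them. With the inner limit kept at 5 Mb and the windows cut to 10 Mb, the log2 difference was -0.17 (same exact test, unadjusted p = 0.441). Of the 16 alternatives, 12 lost the unadjusted call of the 5 Mb comparison.

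Around every fixed point there was a stretch without a listed region. That stretch was narrowest on chromosome 2, at 558 kb, and widest on chromosome 8, at 5194 kb, with a median of 1666 kb. On chromosome 8 it lay between the region from 49272314 to 49273871 and the region from 54467797 to 54469199, and it was the widest of the 241 gaps of that chromosome. On chromosome 4 the stretch of 2768 kb was the third widest of 403 gaps. On the others it ranked between 15 and 160 among 236 to 417 gaps.

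A position falls into wide gaps more often than into narrow ones, simply because wide gaps take up more of a chromosome. A position taken evenly along the gaps would lie in a gap of 1368 kb ± 176 on average (SD, n = 10 chromosomes). The stretch over the fixed point measured 1.38 ± 0.784 times that value and was wider on 7 of 10 chromosomes. On chromosomes 2, 5 and 7 it was narrower, at 0.469, 0.604 and 0.930 times. Gaps at least as wide as the stretch over the point took up 2.97% of the gap length on chromosome 8, 4.32% on chromosome 4 and 77.7% on chromosome 2.

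Single regions lay close to the points on several chromosomes. The nearest was on chromosome 1, from 133995219 to 133997001, with its midpoint 0.00389 Mb from the point, a length of 1783 bp and a deposited ratio of 1.23. On chromosome 5 the region from 106106034 to 106106990 lay 0.107 Mb away, with a length of 957 bp and a ratio of 1.59. On chromosome 7 the region from 57876923 to 57878368 lay 0.122 Mb away, with 1446 bp and a ratio of 1.76. Farthest of the 20 regions that flank the points was the one to the right on chromosome 8, 4.47 Mb away, with 1403 bp and a ratio of 0.970. The lowest ratio among the flanking regions, 0.176, was that of the region to the right on chromosome 9, 0.901 Mb away. Flanking regions thus lay on both sides of the members' median ratio of 0.831.

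Gaps between neighbouring members mirrored the density. Over the 401 gaps inside the windows the median was 498 kb, with quartiles of 183 and 1029 kb. Over the 2689 gaps outside, counted on each side of a window, the median was 441 kb, with quartiles of 168 and 906 kb. Gaps that cross the limit of a window are in neither group. The chromosome medians averaged 568 ± 209 kb inside and 448 ± 26.2 kb outside (SD, n = 10 chromosomes) and were higher inside on 7 chromosomes. The mean log2 difference of 0.26 ± 0.58 missed the threshold (exact permutation over chromosomes, p = 0.199, adjusted p = 0.398). Here too chromosome 5 stood at one end, with a median gap of 252 kb inside, against 939 kb on chromosome 1. Without chromosome 5 the difference was 0.39 with an unadjusted p of 0.0273 in the same exact test. Without any other single chromosome the unadjusted p of that test ran from 0.180 to 0.379.

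Wide gaps were not limited to the points themselves. In the windows 108 of 401 gaps exceeded 1 Mb, 26.9%, where 22.4% of all 3110 gaps and 21.5% of the 2689 outside did. Each of the 10 windows held at least 1 gap of more than 2 Mb. Such gaps numbered 28 of 401 in the windows, 120 of 2689 outside and 151 of all 3110. Whether windows of the same width elsewhere also held them was not examined. After the stretch on chromosome 8, the widest were 3693 kb on chromosome 1, which began 1.73 Mb to the right of the point, and 3548 kb on chromosome 7, which ended 0.122 Mb to the left of it. Neither of them held the fixed point. The widest gap inside a window was 3015 ± 953 kb on average (SD, n = 10 chromosomes).

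Close neighbours were counted next. A region counted as having a close neighbour if another lay less than 20 kb from its edge. This held for 26 of the 411 members, 6.33% (Wilson 95% interval 4.35 to 9.11, which covers counting error only), and for 235 of the 2709 others, 8.67% (7.67 to 9.79). Averaged over chromosomes the shares were 5.42% ± 4.53 inside and 8.83% ± 1.57 outside, lower inside on 8 of 10 (SD, n = 10 chromosomes). The difference of -3.41 ± 4.35 percentage points had p = 0.0371 in the exact permutation and an adjusted p of 0.215, which did not pass the threshold. The unadjusted call was lost in 13 of 18 alternatives, and with the points moved by +3 Mb the difference was -1.85 percentage points (same exact test, unadjusted p = 0.355). On chromosomes 1, 7 and 8 no member had a close neighbour, while on chromosome 5 12.9% had one. The density in the windows was 0.867, 1 and 1.2 per Mb on chromosomes 1, 7 and 8 and 2.33 on chromosome 5, and its part in the difference was not tested.

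In all 14 pairs of adjacent members lay under 20 kb apart, on 7 chromosomes. Only 1 of them was closer than 5 kb, 5 lay 5 to 10 kb apart and 8 lay 10 to 20 kb apart. The closest pair, on chromosome 6, consisted of a region from 41795321 to 41796909 with a ratio of 0.673 and a region from 41800081 to 41801186 with a ratio of 1.23, separated by 3171 bp. On chromosome 9 the regions from 64398423 to 64399277 and from 64404484 to 64405841 were 5206 bp apart, with ratios of 1.18 and 0.529. The next pairs were 5983 bp apart on chromosome 5, 6993 bp on chromosome 10 and 9666 bp on chromosome 3. Partners could thus differ in ratio as on chromosomes 6 and 9, or be alike as on chromosome 3, with 1.35 and 1.30.

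**Figure D3:**
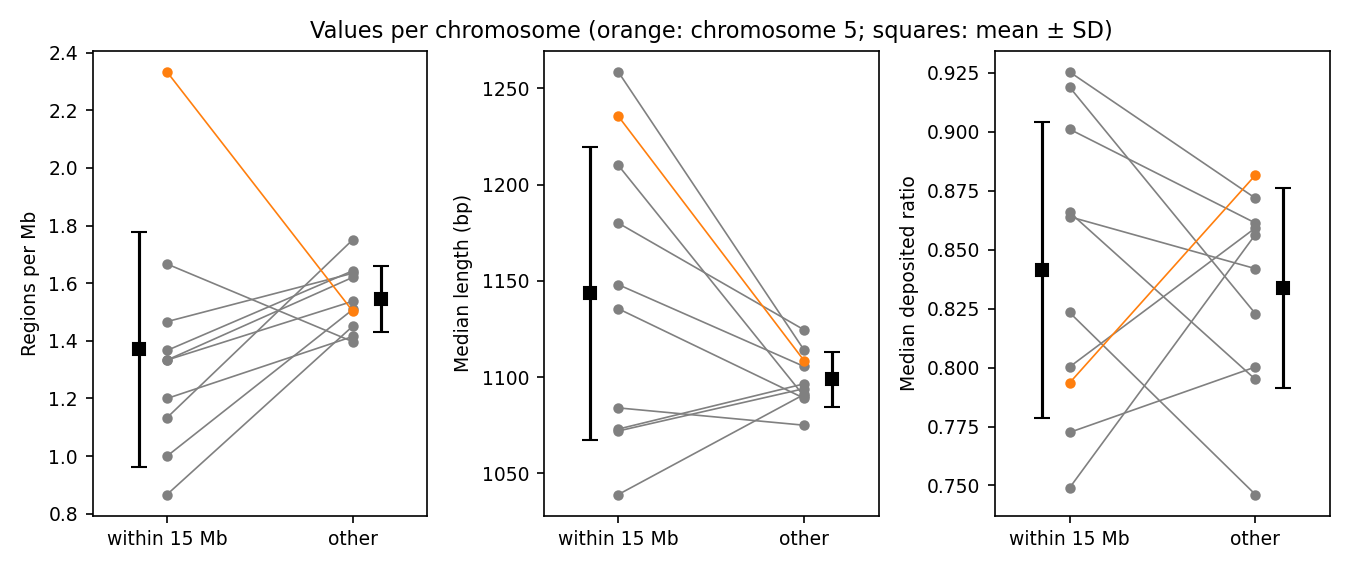
Regions per Mb, median length in bp and median deposited ratio (vertical) within 15 Mb of the fixed point and in the other regions of the same chromosome (horizontal). Lines join the 2 values of a chromosome, orange marks chromosome 5 and squares with bars give the mean ± SD over 10 chromosomes; the axes do not start at 0, density was below the outside value on 8 chromosomes and the ratio shows no common direction.

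Lengths were first compared over the whole window. The median member measured 1161 bp (quartiles 926.5 and 1488 bp), the shortest 800 and the longest 2673 bp. For the others the median was 1100 bp (quartiles 909 and 1460 bp), and the longest measured 3928 bp. The chromosome medians averaged 1144 ± 76.1 bp inside and 1099 ± 14.4 bp outside (SD, n = 10 chromosomes) and were higher inside on 7 chromosomes. The mean log2 difference of 0.05 ± 0.09 missed the threshold (exact permutation over chromosomes, p = 0.0840, adjusted p = 0.280). The highest medians inside were 1258.5 bp on chromosome 8 and 1235.5 bp on chromosome 5, and the lowest was 1039 bp on chromosome 9. In total the members covered 512 kb, or 1708 bp per Mb, against 1877 bp per Mb outside.

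Regions longer than 1500 bp made up 98 of the 411 members, 23.8% (Wilson 95% interval 19.98 to 28.2), and 589 of the others, 21.7% (20.2 to 23.3). Over chromosomes the difference was 1.33 ± 4.56 percentage points, higher inside on 5 of 10, which missed the threshold (exact permutation over chromosomes, p = 0.375, adjusted p = 0.536). Inside, chromosome 1 had the lowest share, 15.4%, and chromosome 5 the highest, 30%. The longest member, 2673 bp, lay on chromosome 9 from 77585053 to 77587725 and had a ratio of 0.927. Next came 2552 bp on chromosome 3, 3.14 Mb from the point, 2430 bp on chromosome 7, 2421 bp on chromosome 4 and 2382 bp on chromosome 3. The last of these, from 100332458 to 100334839, lay 0.334 Mb from the point.

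Next to the points listed regions were few, and many of them were long. Of the 46 regions within 2.5 Mb, 21 were longer than 1500 bp, which is 45.7% (Wilson 95% interval 32.2 to 59.8). From 2.5 to 15 Mb the count was 77 of 365, or 21.1% (17.2 to 25.6). The share was 42.1% within 1 Mb and 48.1% from 1 to 2.5 Mb, and 43.5% to the left and 47.8% to the right. The median length was 1444.5 bp within 2.5 Mb and 1127 bp from 2.5 to 15 Mb. The limits of these classes did not come from the lengths, but the joined class was singled out after its values had been seen, so no test is given. The intervals cover counting error only and take regions as independent, so they do not serve as a test either.

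The long regions within 2.5 Mb lay on all chromosomes but chromosome 2. Long regions numbered 5 of 9 within 2.5 Mb on chromosome 5, 3 of 5 on chromosomes 1 and 4, 3 of 6 on chromosome 6, 2 of 5 on chromosome 3 and 2 of 6 on chromosome 10. Chromosomes 7 and 8 had 1 of 2 each, chromosome 9 had 1 of 3 and chromosome 2 had none among 3. The share of long regions averaged 43.2% ± 18.0 within 2.5 Mb and 21.8% ± 1.51 on the rest of the chromosome (SD, n = 10 chromosomes), higher near the point on 9 of 10. The wide spread near the points goes with the few regions per chromosome. On chromosomes 7, 8 and 9, with 2 or 3 regions each, 1 long region was enough for a higher share. These counts divide the same regions within 2.5 Mb by chromosome, so they are not separate support. In steps of 2.5 Mb out to 30 Mb on both sides, the other 22 classes ran from 14.3% to 41.2% with a median of 20.8%. The highest of them, 14 of 34 regions, lay 15 to 17.5 Mb to the left.

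**Figure D4:**
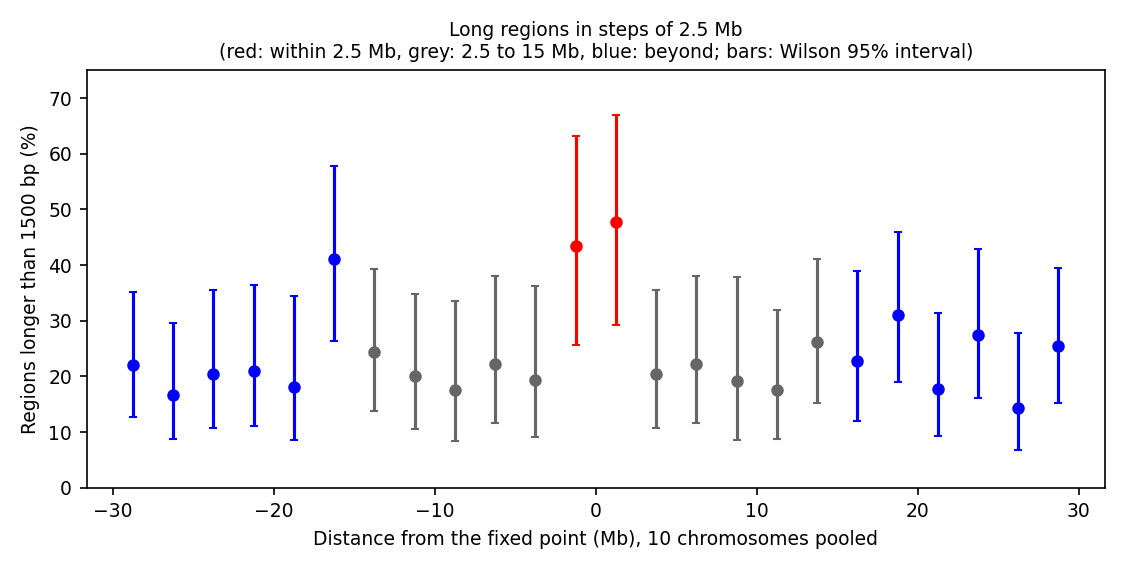
Share of regions longer than 1500 bp in percent (vertical) in steps of 2.5 Mb from the fixed point (horizontal, Mb, left side negative), with the 10 chromosomes pooled. Bars are Wilson 95% intervals, which cover counting error only and are not a test. The red classes within 2.5 Mb, at 43.5% and 47.8%, are the highest, followed by a blue class at 41.2% from 15 to 17.5 Mb to the left.

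Deposited ratios had nearly the same median and quartiles inside and outside the windows. The members had a median ratio of 0.831 with quartiles of 0.588 and 1.16, and the others had 0.842 with quartiles of 0.588 and 1.16. The ratio was below 1 in 266 members, 64.7%, and in 64.4% of the others. Chromosome medians averaged 0.841 ± 0.0627 inside and 0.834 ± 0.0424 outside (SD, n = 10 chromosomes). The mean log2 difference was 0.01 ± 0.13, positive on 6 of 10 chromosomes, and missed the threshold (exact permutation over chromosomes, p = 0.771, adjusted p = 0.857). Its sign turned in several alternatives, so no direction is given.

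Single chromosomes went either way. On chromosome 2 the median ratio was 0.749 inside and 0.856 outside, and on chromosome 5 it was 0.793 and 0.882. On chromosome 9 it was 0.919 inside and 0.823 outside, and on chromosome 6 it was 0.823 and 0.746. The highest median inside, 0.925, belonged to chromosome 7.

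High ratios were few among the members, as they were elsewhere. A ratio above 2 was found in 12 members, 2.92% (Wilson 95% interval 1.68 to 5.03), where 3.94% of all 3120 regions on chromosomes 1 to 10 exceeded that value. The difference from the others was -1.02 ± 2.67 percentage points over chromosomes, lower inside on 6 of 10, and missed the threshold (exact permutation over chromosomes, p = 0.254, adjusted p = 0.423). The highest ratio, 4.28, was that of a region of 1601 bp on chromosome 4 from 101816668 to 101818268. It was followed by 3.35 on chromosome 9 from 78524660 to 78525526 and 2.73 on chromosome 8 from 39862202 to 39863031. The next were 2.57 on chromosome 2 from 85641715 to 85642731 and 2.36 on chromosome 7 from 43366813 to 43367851. Of these 5 regions, 1 lay within 5 Mb of its point, at 3.68 Mb, and 1 lay near the limit, at 14.6 Mb. How many reads these ratios rest on is not reported here.

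Low ratios made up similar shares inside and outside. A ratio above 0 and below 0.5 was found in 53 members, 12.9%, where the share over all regions was 12.9%. Over chromosomes the difference was 0.26 ± 5.41 percentage points (exact permutation over chromosomes, p = 0.885, adjusted p = 0.885). A ratio of exactly 0 was listed for 17 members, 4.14% (Wilson 95% interval 2.598 to 6.52), where 4.23% of all regions were at 0. These regions were on 7 chromosomes, with 4 on chromosome 3 and none on chromosomes 1, 6 and 8. The difference of -0.46 ± 3.22 percentage points missed the threshold (exact permutation over chromosomes, p = 0.672, adjusted p = 0.840). The lowest ratio above 0, 0.0882, was shared by regions on chromosome 2 from 81852248 to 81853213 and on chromosome 3 from 94138350 to 94139463. For these low ratios too the number of reads is not reported.

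Within 2.5 Mb of the points the ratio ran from 0 to 1.76, with a median of 0.752, and 33 of 46 regions, 71.7%, were below 1, where 64.4% of all 3120 regions were. None of the 46 exceeded 2. The approximate upper limit for a count of 0, which takes regions as independent, was 6.52%, above the 3.94% found over all regions. A lack of high ratios was thus not detectable with this number of regions. From 2.5 to 15 Mb the median was 0.838 and the highest ratio 4.28. By chromosome the median within 2.5 Mb was lower than on the rest of the chromosome on 5 and higher on 5, from 0.312 over 3 regions on chromosome 9 to 1.41 over 5 regions on chromosome 4.

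Inside the windows neither ratio nor length followed the distance from the point in a common direction. Spearman's rho across members between ratio and distance averaged -0.01 ± 0.12 over chromosomes, from -0.23 on chromosome 7 to 0.20 on chromosome 9. Between length and distance it averaged -0.06 ± 0.19, from -0.29 on chromosome 3 to 0.32 on chromosome 7 (SD, n = 10 chromosomes, 26 to 70 members each). Between length and ratio rho was 0.06 ± 0.21 among members and 0.09 ± 0.06 among the other regions. These are descriptions across regions that share the same 2 libraries.

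**Figure D5:**
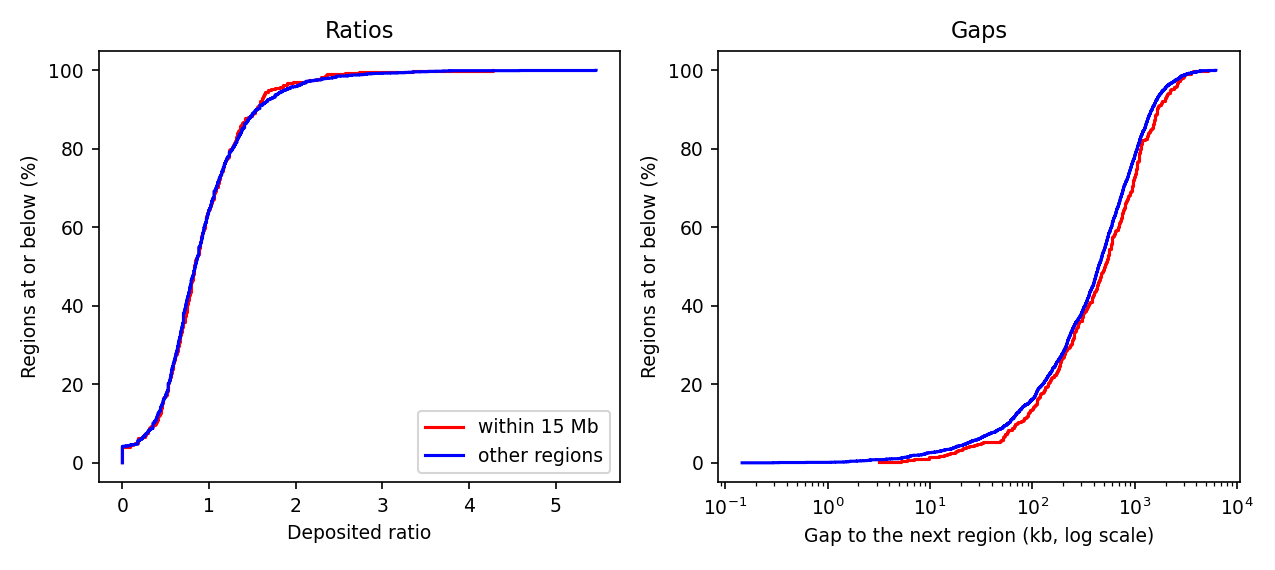
Left, the share of regions in percent (vertical) at or below a deposited ratio (horizontal), and right, at or below a gap to the next region in kb (horizontal, log scale), for regions within 15 Mb (red) and other regions (blue). The ratio curves lie on each other, with medians of 0.831 and 0.842, and the red gap curve lies slightly to the right over most of the range. Each gap is drawn with the class of the region on its left, so gaps that cross the limit of a window are included, unlike in the text.

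The listed regions nearest to the limit of the windows lay on different chromosomes, so they do not show whether regions ran on across it. Just inside the limit lay a region of 1001 bp on chromosome 8 at 14.98 Mb with a ratio of 0.655 and a region of 2116 bp on chromosome 10 at 14.94 Mb with a ratio of 0.668. After the region on chromosome 8 came a gap of 3024 kb across the limit. Just outside lay a region of 1211 bp on chromosome 2 at 15.001 Mb with a ratio of 0.793 and a region of 924 bp on chromosome 6 at 15.07 Mb with a ratio of 0.597.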

How the data were processed

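The deposited table, which has no header, gives position, length and ratio for 3126 regions. Lengths equalled end minus start in all 3126 rows, and positions are printed counted from 1. The length in bp and the linear ratio, 1 value per region, are as the authors deposited them. A further 2 columns hold whole numbers and name no library. They were not used as measurements, so read depth per region is not described here. They were read only to find the ratio's form, which was 0.176327 times the first divided by the second plus 1, within 0.0001 in all 3126 rows; the added 1 lowers ratios most where the second number is small. Per the submitters' processing notes, CASAVA 1.8 and BWA were used. Not given in the sources used here are the build, the caller of the regions and how reads that match several places were treated.

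Regions on chromosomes 1 to 10 were split at 15 Mb from the fixed points; 6 regions of chromosome 0 were left out. The span outside ran from position 0 to the end of the last listed region, less the window. Per-chromosome differences (log2 for densities and medians, percentage points for shares) were tested by exact permutation of their signs (two-sided, 1024 patterns, smallest possible p 0.00195), with Benjamini-Hochberg adjustment over 10 tests and a threshold of 0.05. No test between MNase and input was possible with 1 library each. Named regions were the nearest on both sides of a point, the 5 longest, the 5 highest ratios, the 5 closest pairs, the 3 widest gaps and those at the limit; the lowest ratio above 0 was added after values had been seen. Windows and tests were chosen with earlier results of these data known. The test was run on simulated data for density and median ratio only, with regions placed independently at random inside and outside the windows. The outcome is not reported here. Python 3.11.15, numpy 2.4.6, scipy 1.17.1, pandas 2.3.3 and matplotlib 3.10.9 were used.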

Additional observations from a re-analysis of the deposited data

How the results depend on the processing

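In 170 recomputations of the 10 compared measures, 123 kept their direction and their side of an unadjusted p of 0.05, 25 lost that call, 7 gained it and 15 turned sign. Differences are inside minus outside, on the log2 scale unless given in percentage points, and the cause of a change was not tested. With a half-width of 10 Mb the density difference gained the call at -0.40 (exact permutation over chromosomes, unadjusted p = 0.0332), and the inner density lost it at -0.17. That inner density also lost it with the points moved by -3 Mb (-0.34) or +3 Mb (-0.38) and without regions of 900 bp or less (-0.47). The share with a close neighbour lost its call at half-widths of 10 and 20 Mb (-2.59 and -2.85 points), with the points moved by -3 or +3 Mb (-3.22 and -1.85 points), without the outermost 20 Mb (-2.99 points) and without regions of 900 bp or less (-2.98 points). It kept the call with limits of 10 and 50 kb. Median length gained the call with the points moved by +3 Mb (0.0700), without regions of 900 bp or less (0.0854) and as a mean (0.0343). Sign turns were small and concerned the ratio. The share above 0 and below 0.5 turned at half-widths of 10 and 20 Mb (-0.40 and -0.88 points) and with the points moved by +3 Mb (-0.64 points), and the share at 0 with the points moved by -3 Mb (0.0946 points). The median ratio turned without the outermost 20 Mb (-0.00714) and as a mean (-0.00941), and the share above 2 turned with a limit of 1.5 (0.37 points).

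Without each chromosome in turn, density ran from -0.32 (without chromosome 5) to -0.16, median gap from 0.17 to 0.39 (without chromosome 5), median length from 0.0414 to 0.0688 (without chromosome 9, unadjusted p = 0.0352 by exact permutation) and median ratio from -0.00502 to 0.0342. In percentage points, the share at 0 ran from -1.23 to 0.0611, the share above 0 and below 0.5 from -0.45 to 1.31 and the share with a close neighbour from -4.16 to -2.73. The inner density ran from -0.49 to -0.25. The share with a close neighbour lost its call without any one of chromosomes 1, 4, 6, 7, 8, 9 and 10, and the inner density without any one of all but chromosomes 3 and 4. Few regions per chromosome limit the values near the points, and read depth per region was not used. No paired analysis was possible because there is 1 library per group.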
